A study of Mus musculus with 6 samples.

Results

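Mei4 was studied with 9 other genes of meiotic recombination, Mei1, Spo11, Dmc1, Rec8, Stag3, Sycp3, Hormad1, Msh4 and Msh5, in 393P, a mass population of mouse lung tumour cells. Mei4 was chosen by its rise between the shRNA and the control arrays described here, and the others for their known function in meiosis, with the results of these arrays known. Every probe set annotated to exactly 1 of these genes was used, which gave 12 probe sets for 10 genes, of 45037 probe sets and 18194 genes on the arrays. Dmc1 and Msh5 each had 2 probe sets and the other 8 genes 1 each, so that all statements on Mei4 rest on a single probe set.

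The 6 arrays were 3 of 393P cells carrying a vector with a short hairpin RNA (shRNA) against MKK4 and 3 of 393P cells carrying a control vector, which the series design calls scrambled. The line came from a primary lung tumour of a p53R172H∆g/+ K-rasLA1/+ mouse, and both groups share that background. The series design describes retroviral infection, whereas the treatment protocol describes transfection with Lipofectamine. The arrays of a group are called triplicate cultures, so their spread is that between cultures of 1 modified cell population per group, and differences between the 2 populations that have nothing to do with MKK4 cannot be told apart from its depletion. Map2k4, which encodes MKK4, checks the labels: its brighter probe set read 240, 295 and 287 units on the shRNA arrays, against 700, 638 and 597 units on the control arrays. It was lower on all 3 shRNA arrays.

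Meiosis begins with programmed double-strand breaks in DNA. SPO11, a relative of topoisomerases, makes the breaks, with MEI4, REC114 and MEI1 among the proteins it needs to do so. The breaks are made in chromosomes folded along an axis of meiotic cohesin (REC8, STAG3) and axis proteins (SYCP3, HORMAD1). DMC1, a recombinase made in meiotic cells, then leads strand exchange with the homologous chromosome, and the MSH4-MSH5 pair stabilises the joints that become crossovers. In somatic cells such genes are as a rule silent, many of them by DNA methylation or by a Polycomb complex that holds E2F6, MGA and MAX, which recognise E2F-type and E-box sequences.

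The 250 bases before the start site are shown for Mei4, the gene that moved, and for Sycp3 and Hormad1, 2 members whose windows hold both kinds of sequence. The sequences are those of RefSeq, build GRCm38.p6, all on the plus strand, at chr9:81863420-81863669 for Mei4, chr10:88459337-88459586 for Sycp3 and chr3:95559427-95559676 for Hormad1. Capitals mark TCCCGC (E2F type), CACGTG (E-box) and TGANTCA (AP-1), searched on both strands.
Mei4: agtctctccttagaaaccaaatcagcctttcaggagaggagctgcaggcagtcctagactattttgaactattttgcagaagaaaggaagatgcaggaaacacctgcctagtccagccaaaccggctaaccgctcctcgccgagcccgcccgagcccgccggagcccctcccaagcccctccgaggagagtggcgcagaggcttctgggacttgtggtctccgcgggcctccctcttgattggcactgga
Sycp3: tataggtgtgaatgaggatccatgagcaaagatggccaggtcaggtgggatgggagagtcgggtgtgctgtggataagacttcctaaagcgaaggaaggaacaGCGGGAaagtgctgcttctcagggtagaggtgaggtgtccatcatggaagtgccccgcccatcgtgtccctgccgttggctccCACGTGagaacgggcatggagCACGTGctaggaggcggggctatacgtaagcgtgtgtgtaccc
Hormad1: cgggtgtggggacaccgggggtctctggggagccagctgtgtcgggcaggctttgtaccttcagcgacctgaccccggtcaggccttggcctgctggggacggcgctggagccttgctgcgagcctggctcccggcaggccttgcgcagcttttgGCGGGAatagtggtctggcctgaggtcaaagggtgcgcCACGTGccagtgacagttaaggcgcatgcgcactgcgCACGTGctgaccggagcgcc
The Mei4 window held none of the 3 motifs, nor did that of Mei1. The Sycp3 and Hormad1 windows each held 1 TCCCGC and 2 CACGTG, and Stag3 held 1 CACGTG. RefSeq windows were matched for 9 of the 10 genes, all but Spo11. Rec8 and Msh5 had 1 TCCCGC each, Dmc1 had 2, and Msh4 had 2 TGANTCA, which are not printed. The 3 motifs are in 16.9%, 6.02% and 6.75% of 32851 such windows of the genome, in the order given. CG dinucleotides numbered 12 in the Mei4 window, 12 in that of Sycp3 and 19 in that of Hormad1, where the median window has 6. A match is a string of letters, and no binding or methylation was measured here.

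Mei4 was high on all 3 shRNA arrays and close to background on all 3 control arrays. Its probe set, 1437935_at, gave 393, 448 and 475 intensity units on the shRNA arrays, against 51.8, 39.9 and 40.7 units on the control arrays. The groups lie far apart, and the lowest shRNA array is several times the highest control array. The means were 438 ± 41.8 units with the shRNA and 44.1 ± 6.62 units with the control vector (SD, n = 3 each), a ratio of 9.94. Fitted on the scale used here, log2(intensity + 16), the change was 2.91 with an SE of 0.105, or 7.51-fold; the added 16 units understate the change of a dim gene. This was rank 2 among the rises of all 45037 probe sets. Since Mei4 was chosen for this rise, the values are a description and no test is given.

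The yardstick for background was trpnX, a bacterial transcript used as a negative control, of which the brightest probe set read 39.2, 39.5 and 38.0 units on the shRNA arrays and 36.7, 26.5 and 36.0 units on the control arrays. With the shRNA, Mei4 was at 11.1 times the highest of these readings. With the control vector it was at 1.12 times that reading, so the denominator of the fold is close to background and the size of the fold is uncertain. In level the Mei4 probe set moved to the 77.8th percentile of probe sets in the shRNA cells, against the 35.6th percentile in the control cells. An array of a whole culture cannot tell a low level in all cells from a high level in a few.

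**Figure D1:**
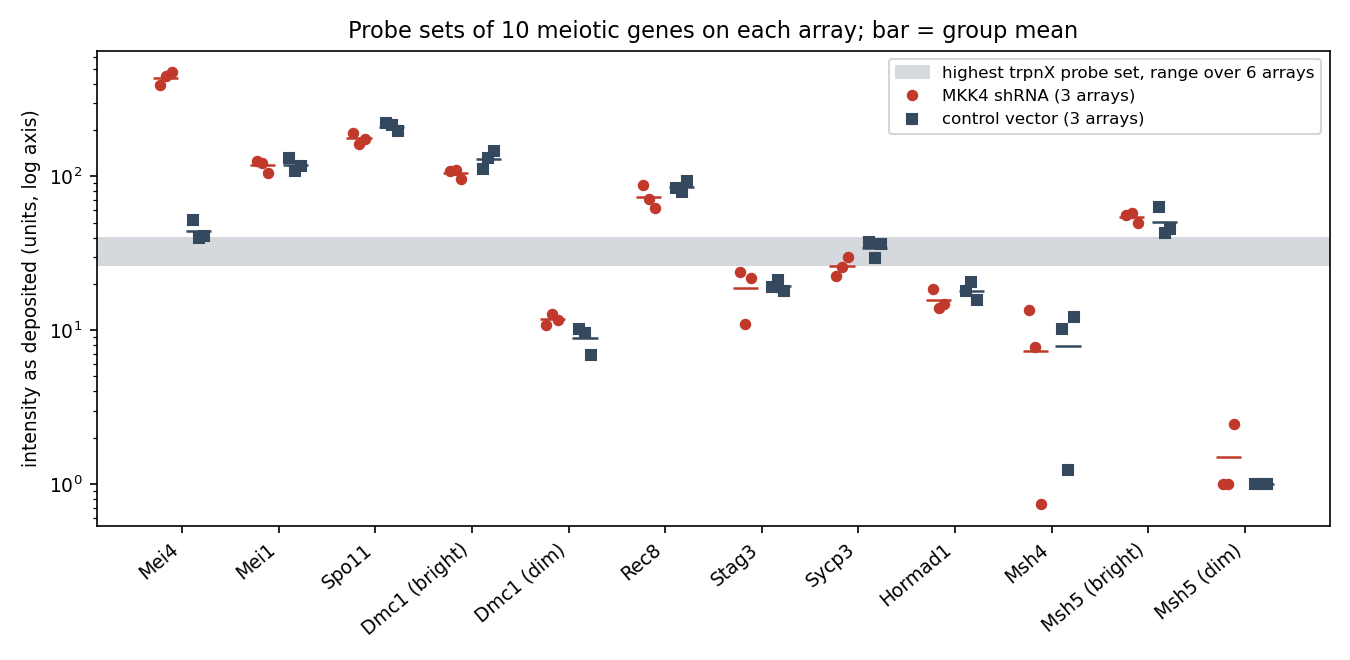
Intensity as deposited (log axis) of the 12 probe sets on each array, with shRNA arrays as red circles left of control arrays as dark squares, bars at the group means, and a grey band for the brightest trpnX probe set over the 6 arrays. Mei4 is at 393 to 475 units on the shRNA arrays and at 39.9 to 51.8 units on the control arrays; in every other probe set the groups lie close together.

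The other 9 genes did not move with Mei4. Their 11 probe sets changed by -0.27 to 0.16 on the log2 scale, 8 of them below 0 and 3 above, and the median over the 9 genes, each on its brightest probe set, was -0.10, beside -0.007 over all genes. Of the 12 probe sets limma called 1, Mei4, and none of the other 11, of which 2, or 18.2%, had an unadjusted p under 0.05; over all probe sets 6.37% were called, 3.57% as higher, and 18.6% had an unadjusted p under 0.05. The contrast itself chose Mei4, so nothing is read from this count. The highest upper end of a 95% interval of the change among the other 11 was 0.54, for Msh4, and 0.42 among those above background on every array, for Msh5.

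Spo11, the gene of the enzyme that cuts the DNA, was the brightest of the others. It read 193, 163 and 176 units on the shRNA arrays, against 222, 215 and 196 units on the control arrays. All shRNA values lie below all control values, by a small margin, and the log2 change was -0.24 with an SE of 0.087. Mei1, which is needed for the breaks, read 125, 122 and 105 units on the shRNA arrays and 131, 108 and 116.5 units on the control arrays. These ranges overlap almost completely, with a log2 change of -0.01 (SE 0.098). The 95% interval of this change ran from -0.24 to 0.22.

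Dmc1, the meiotic recombinase gene, read 108, 110 and 96.7 units on the shRNA arrays, against 112, 132 and 146 units on the control arrays, on its brighter probe set. The groups do not overlap but nearly touch, and the log2 change was -0.27 (SE 0.107). The dimmer Dmc1 probe set went the other way, with 10.8 to 12.8 units on the shRNA arrays and 6.92 to 10.1 units on the control arrays, all within background. The groups failed to overlap in 3 of the 11 probe sets, namely Spo11 and both of Dmc1, 2 lower and 1 higher with the shRNA; over all probe sets the share was 21.2%, made up of 11.7% higher and 9.42% lower.

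Among the crossover genes, the brighter Msh5 probe set read 55.7, 57.8 and 49.5 units on the shRNA arrays and 63.4, 42.5 and 45.8 units on the control arrays. The control arrays span a wider range that contains every shRNA array. The other Msh5 probe set read exactly 1 on 2 shRNA arrays and 2.46 on the third, against 1 on all 3 control arrays, a value that 1475 to 1633 probe sets share on each array. Msh4 read 0.74 to 13.5 units on the shRNA arrays and 1.23 to 12.2 units on the control arrays, which says nothing about its level beyond its lying within background.

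Of the cohesin and axis genes, only Rec8, a cleavable meiotic cohesin subunit, was above the trpnX readings on every array. It read 88.0, 71.5 and 62.1 units on the shRNA arrays and 84.0, 79.5 and 93.5 units on the control arrays, with overlapping groups and a log2 change of -0.19 (SE 0.123). Stag3, Sycp3 and Hormad1 did not exceed the highest trpnX reading on any array. Stag3 averaged 18.9 ± 6.87 units in the shRNA cells and 19.4 ± 1.55 units in the control cells. Sycp3 averaged 26.1 ± 3.69 units in the shRNA cells and 34.3 ± 4.14 units in the control cells. Hormad1 averaged 15.8 ± 2.41 units in the shRNA cells and 18.1 ± 2.46 units in the control cells (SD, n = 3 each throughout). No fold is given for these 3, nor for Msh4, since both groups are within background. Thus 5 of the other 9 genes had a probe set above trpnX on all 6 arrays, and 4 had none.

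**Figure D2:**
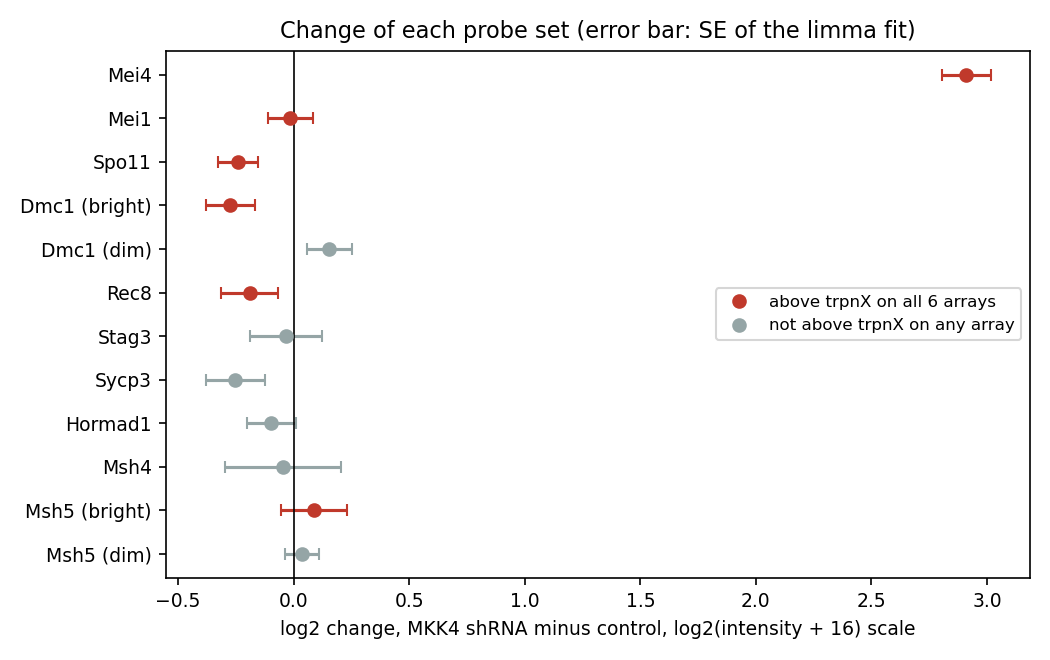
Log2 change of each probe set, MKK4 shRNA minus control, on the log2(intensity + 16) scale, with the SE of the limma fit; red marks probe sets above the highest trpnX reading on all 6 arrays and grey those above it on none. Mei4 stands at 2.91 and the other 11 probe sets lie between -0.27 and 0.16.

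The wider machinery of meiosis and the germline was read from 6 lists with 141 genes, of which 116 were measured; the other 25 were not analysed here. Of the 116 genes, each on its brightest probe set, limma with Benjamini-Hochberg adjustment over all probe sets called 2 higher and 3 lower, or 4.31%, where 9.46% of all genes were called. At an unadjusted p under 0.05 there were 18, or 15.5%, against 24.1% of all genes. Their median log2 change was -0.009, and none rose by 1 or more on the log2 scale. Only 66 of all 18194 genes rose that far, so nothing is read from their absence among 116. Of the 71 genes whose brighter group lay above trpnX 1 was higher and 2 lower, or 4.23%, where 12.1% of such genes were called.

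The genes listed with Mei4 as break machinery did not pass the test. Of 7 measured genes of this list limma called 0, and 0 had an unadjusted p under 0.05. The list includes Cdk2 and Atm, which also serve cells outside meiosis, and 3 of the 7 lay within trpnX in both groups. The count therefore says little about the break machinery itself. Rec114, whose product binds MEI4, read 43.6, 37.7 and 38.8 units on the shRNA arrays and 39.5, 53.2 and 48.4 units on the control arrays, close to trpnX in both groups (log2 change -0.16, adjusted p = 0.568), and its other probe set gave 0.12. Prdm9, which marks the places where breaks are made, averaged 15.8 units in the shRNA cells and 25.4 units in the control cells, within background. Ankrd31, another partner of the break machinery, averaged 9.04 units in the shRNA cells and 11.2 units in the control cells, also within background. Iho1 was not analysed here.

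Strand exchange and crossover genes gave 1 higher and 2 lower of 15 measured, or 20%, where 9.46% of all genes were called. At an unadjusted p under 0.05 there were 7, or 46.7%, against 24.1% of all genes, the highest such share among the 6 lists. Cntd1, a cyclin-related gene of crossover maturation, averaged 2434 units in the shRNA cells and 1989 units in the control cells (log2 0.27, limma adjusted p = 0.0202). This probe set can match several transcripts, and of the 2 Cntd1 probe sets without that limit the one above background gave 0.04 (adjusted p = 0.847) and the other, within background, -0.04, so the probe sets of Cntd1 disagree. Swi5, a cofactor of strand exchange, was lower, at 2077 units in the shRNA cells and 2566 units in the control cells (-0.32, adjusted p = 0.0188). Mlh3, a mismatch repair gene that also resolves crossovers, was lower too, at 409 units in the shRNA cells and 470 units in the control cells (-0.21, adjusted p = 0.0274). Both also serve cells that do not enter meiosis. Each of the 3 calls was lost in some fits with 1 array left out, while the log2 changes kept their sign. Such fits have fewer arrays and called 1183 to 1867 probe sets, where all arrays together gave 2868. Leaving out any 1 array ended the call of Mlh3 (limma adjusted p up to 0.106). That of Swi5 ended without any shRNA array or control replicate 3 (up to 0.0976). That of Cntd1 ended without shRNA replicate 2 or any control array (up to 0.0856). Of the 16 alternatives Swi5 passed in 9, Cntd1 in 8 and Mlh3 in 6.

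Of 19 genes listed under the axis, cohesin and synaptonemal complex limma called 0, with 3 at an unadjusted p under 0.05. The list also holds Tdrkh, a gene of the piRNA pathway (limma adjusted p = 0.966). Sycp1, whose product links the paired axes across the synaptonemal complex, averaged 57.7 units in the shRNA cells and 58.4 units in the control cells (log2 change -0.01, adjusted p = 0.969). Sycp2, a partner of SYCP3 in the axis, averaged 6.32 units in the shRNA cells and 2.40 units in the control cells, within background.

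Regulators of germ cell identity also gave 0 calls by limma, among 28 measured, with 2 at an unadjusted p under 0.05. Stra8, the retinoic acid target that starts meiosis, averaged 131 units in the shRNA cells and 109 units in the control cells (log2 change 0.22, adjusted p = 0.23). Dazl, a germ cell RNA-binding protein gene, averaged 124 units in the shRNA cells and 108 units in the control cells (0.17, adjusted p = 0.462). The groups did not overlap in 8 of the 28 genes, Stra8 and Dazl among them, and in 4728 of all 18194 genes. The germ cell helicase gene Ddx4 averaged 7.05 units in the shRNA cells and 3.98 units in the control cells, within background.

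Of 16 genes of the piRNA pathway, which silences transposons in the germline, limma called 0, and 0 had an unadjusted p under 0.05. Mael, one of them, averaged 8.08 units in the shRNA cells and 11.5 units in the control cells. Of 31 genes of spermatids and testis 2 were called, Slc25a31, a testis ADP/ATP carrier, lower, and the sperm flagellum gene Spag6, higher, and 6 had an unadjusted p under 0.05. Slc25a31 averaged 8.06 units in the shRNA cells and 30.2 units in the control cells, and Spag6 averaged 13.3 units in the shRNA cells and 5.84 units in the control cells. All 4 means lie within background, so no fold is given. The Spag6 call ended without any 1 array (adjusted p up to 0.136) and that of Slc25a31 without any but control replicate 2 (up to 0.0824).

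**Figure D3:**
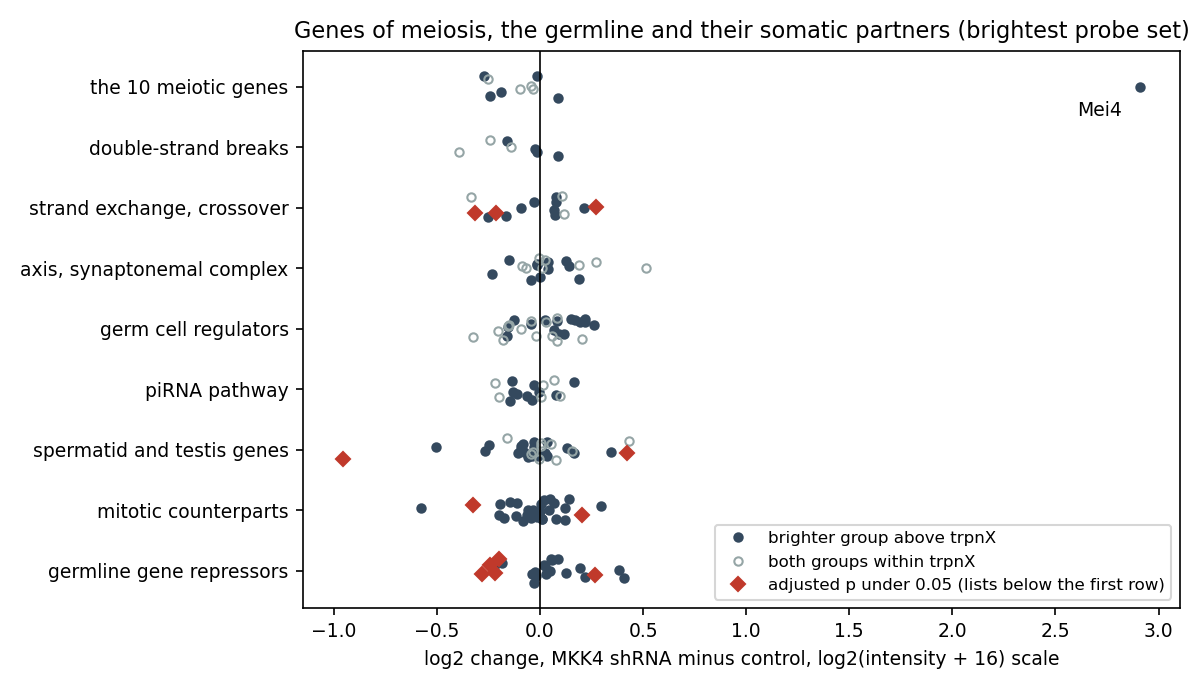
Log2 change of each measured gene on its brightest probe set, MKK4 shRNA minus control, by list; filled points have a group above trpnX, open points do not, and red diamonds passed an adjusted p of 0.05 whatever their level (not marked in the first row, where Mei4 was chosen for its rise). Mei4 stands at 2.91, and the 116 genes of the 6 germline lists lie between -0.95 and 0.51.

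The list of mitotic counterparts held 36 genes of cohesin and DNA repair that serve dividing cells, not all of them relatives of a member. Of these 32 were measured, all with a group above trpnX. Among the 32, 1 was higher and 1 lower, or 6.25%, where 12.1% of genes above trpnX were called. At an unadjusted p under 0.05 there were 10, or 31.2%, against 24.1% of all genes. The latter share includes genes within trpnX, so the 2 shares are not alike in level. Msh6, a mismatch repair relative of MSH4 and MSH5, fell to 1133 units in the shRNA cells, against 1408 units in the control cells (log2 -0.32, limma adjusted p = 0.00562). Rpa1, the large subunit of the single-strand binding complex, was higher, at 1792 units in the shRNA cells and 1543 units in the control cells (0.20, adjusted p = 0.018), and its other probe set gave 0.28; leaving out shRNA replicate 2 or 3 or control replicate 1 or 2 ended the call (up to 0.0765). Rad21, the mitotic counterpart of Rec8, gave 0.12 (adjusted p = 0.0563) and passed in 3 of the 16 alternatives, among them that without control replicate 1 (0.0348). Stag2, the counterpart of Stag3, gave -0.12 (adjusted p = 0.168). Rpa1 passed in 8 of the 16 alternatives and Msh6 in 15, all but that without a trend in the prior variance (adjusted p = 0.0559).

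Of 24 genes known to keep germline genes silent 4 fell and 1 rose, or 20.8%, where 12.1% of genes above trpnX were called and 5.44% were lower. An unadjusted p under 0.05 was found for 10 of them, or 41.7%, against 24.1% of all genes. All 24 had a group above trpnX, whereas the share over all genes includes genes within it. Dnmt3b, a DNA methyltransferase gene, averaged 299 units in the shRNA cells and 362 units in the control cells (log2 -0.28, limma adjusted p = 0.048), and its other probe set gave -0.09. Tfdp2, a partner of E2F factors, gave -0.24, but its other probe sets above background gave -0.20 and 0.01, and the mean of its probe sets did not pass (-0.11, adjusted p = 0.357). The deacetylase gene Hdac1 gave -0.22. Pcgf6, a subunit of the Polycomb complex with E2F6, gave -0.20, and its other probe sets, which did not pass, -0.18 and -0.22. Yaf2, a subunit of Polycomb complexes, gave 0.26 (adjusted p = 0.00826), but did not pass without a trend in the prior variance (0.0815); its other probe set gave 0.20 (adjusted p = 0.0506). Each of the 4 falls lost its call in some fits with 1 array left out, which have fewer arrays and call fewer probe sets. That of Dnmt3b ended without any 1 array (adjusted p up to 0.15) and that of Tfdp2 without any but control replicate 3 (up to 0.124). That of Pcgf6 ended without any but shRNA replicate 3 (up to 0.145), and that of Hdac1 without shRNA replicate 1 or 2 or control replicate 2 or 3 (up to 0.0922). Of the 16 alternatives Hdac1 passed in 8, Pcgf6 in 7, and Dnmt3b and Tfdp2 in 6 each.

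Position was examined because the members had been chosen without it. The 10 genes are on 8 chromosomes, and Mei4 is on chromosome 9. Of the 10 measured genes on each side of it in RefSeq order, limma called 3, or 15%, all higher with the shRNA. Of all genes 9.46% were called, and 5.23% were called higher. The 3 were 17.6% of the 17 neighbours whose brighter group lay above trpnX, where 12.1% of such genes were called. Of the 20 neighbours 6, or 30%, had an unadjusted p under 0.05, against 24.1% of all genes. The nearest measured neighbour on one side, Irak1bp1, which encodes a binding protein of the kinase IRAK1, rose 1.45-fold, with 399, 413 and 414 units on the shRNA arrays and 270, 276 and 275 units on the control arrays (log2 0.54, SE 0.048, adjusted p = 0.00121). The groups are wide apart against their spread; a dimmer Irak1bp1 probe set gave 0.19.

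Hmgn3, a nucleosome-binding protein gene 2 places further, rose 1.70-fold, with 1281, 1465 and 1465 units on the shRNA arrays and 853, 801 and 769 units on the control arrays (log2 0.77, SE 0.043, adjusted p = 0.000224), and its other probe set gave 0.79. Phip, which lies between these genes, gave -0.08 (limma adjusted p = 0.393). Beyond Hmgn3, Lca5 gave 0.29 (adjusted p = 0.123), and Gm2087, within background, was higher but did not pass (adjusted p = 0.0673). On the other side the nearest measured gene, the serotonin receptor gene Htr1b, averaged 51.1 units in the shRNA cells and 57.3 units in the control cells (-0.14, adjusted p = 0.662). The third call was Tmem30a, a flippase subunit gene 7 places away, with a log2 change of 0.35 (adjusted p = 0.00503). Its other probe sets above background gave 0.19, which also passed (limma adjusted p = 0.0358), and 0.15 and -0.22, which did not. The mean of the Tmem30a probe sets did not pass (adjusted p = 0.174), nor did the fit without a trend (0.0502). Of the 20 neighbours 9 had a log2 change above 0 and 11 below. Their median was -0.04, beside -0.007 over all genes.

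**Figure D4:**
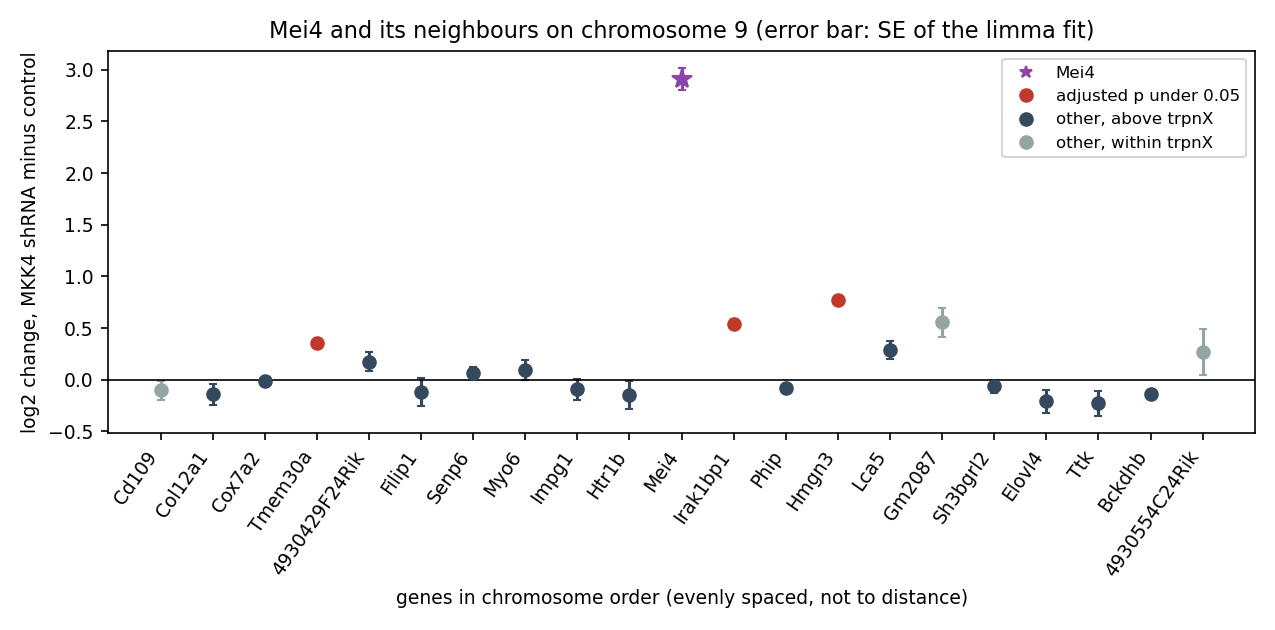
Log2 change, MKK4 shRNA minus control, of Mei4 (star) and of the 10 measured genes on each side of it on chromosome 9, in RefSeq order and evenly spaced, with the SE of the limma fit. Irak1bp1 (0.54), Hmgn3 (0.77) and Tmem30a (0.35) passed the test, and none of the 20 comes near the 2.91 of Mei4.

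The genes most like Mei4 over the 6 arrays, by Pearson correlation of normalized log2 values, were Kdm5d, Dnaja3, Mcts1, Kif21a and Hspa4l, at r = 0.999 each, of 13056 named genes above trpnX. They include the histone demethylase gene Kdm5d on the Y chromosome, the chaperone genes Dnaja3 and Hspa4l, and the kinesin gene Kif21a. With 2 groups of 3 arrays such a value mainly follows the difference between groups: 636 genes had r above 0.95. Among the 5, Kif21a had a change nearest in size to that of Mei4, at 287 units in the shRNA cells and 39.3 units, close to background, in the control cells (log2 2.45). The others changed by 0.34 to 0.84.

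Over all 45037 probe sets 1610 were higher and 1258 lower; with the values as deposited the split was 1229 higher and 613 lower, and without a trend in the prior variance 613 higher and 328 lower. Of 8 epithelial and lung markers, 2 fell and 0 rose, or 25%, where 9.46% of all genes were called. Epcam, an epithelial adhesion gene, averaged 5514 units in the shRNA cells and 6879 units in the control cells (log2 -0.35, limma adjusted p = 0.00206), and passed in all 16 alternatives. Cdh1, which encodes E-cadherin, averaged 6684 units in the shRNA cells and 7236 units in the control cells (-0.14, adjusted p = 0.0304), but its call ended without any 1 array (up to 0.122), and it passed in 6 of the 16 alternatives. The keratin genes Krt8 and Krt18 gave 0.08 and 0.01 and did not pass. The lung factor Nkx2-1 was at 1.38 units in the shRNA cells and 2.32 units in the control cells, and the club cell gene Scgb1a1 was within background. The lung genes Sftpb and Sftpc lay above trpnX on all 6 arrays and did not pass. Sftpb averaged 266 units in both groups, and Sftpc averaged 61.9 units in the shRNA cells and 75.8 units in the control cells. The 8 markers summed to 35694 to 36380 units on the shRNA arrays and 36841 to 37070 units on the control arrays. The part of these changes in the results on germline genes was not tested. Markers of leukocytes, summed over 4 genes, gave 177 to 190 units on the shRNA arrays and 178 to 189 units on the control arrays, and none of 12 fibroblast, leukocyte and endothelial markers passed the test (0 also at an unadjusted p under 0.05 by limma). Of 6 markers of the somatic gonad, Sox9, which the embryonic lung epithelium also expresses, rose to 175 units in the shRNA cells, against 98.8 units in the control cells (log2 0.72, adjusted p = 0.00189), and the other 5 did not pass. All 6 lay above trpnX, among them Amh at 414 units in the shRNA cells and 403 units in the control cells. Their expression was not measured in another way, so a reading above trpnX is not taken by itself as a sign that a gene is expressed. Their sum was 1150 to 1215 units on the shRNA arrays and 1065 to 1089 units on the control arrays, and its part in the results on germline genes was not tested.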

How the data were processed

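Biotin-labelled RNA of 6 cultures was measured on Affymetrix arrays, per the labels' protocols. The table holds each probe set's intensity as deposited, on a linear scale, with 1475 to 1633 values at exactly 1 per array; how the authors summarised probes, corrected background and normalized is not given in the sources used. Array medians were 92 to 95.76 units. With 3 arrays a group, precision is limited by their number.

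Log2(intensity + 16) was quantile-normalized and 64 control probe sets were left out. Groups were compared with limma 3.58.1 (R 4.3.3; lmFit, eBayes with trend), Benjamini-Hochberg over 45037 probe sets at 0.05. The test was checked on simulated data. A gene in a list stands for its brightest probe set. Genes come from the platform annotation (34945 probe sets with 1 gene), with symbols updated through RefSeq (GRCm38.p6) by Entrez number; promoter windows matched for 9 of 10 members.

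Named were all members; in each list called genes above trpnX, up to 4 by size, and some defining genes; called and nearest neighbours; and the 5 genes most like Mei4. Pcgf6, Slc25a31, Spag6, the neighbours Phip, Lca5 and Gm2087, and several markers were named after their values were seen. The members, lists and tests were chosen with earlier results of these data known. Alternatives are in the closing section.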

Additional observations from a re-analysis of the deposited data

How the results depend on the processing

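Alternatives were the values as deposited, median centring, pseudocounts of 1 and 64, the dimmer probe sets left out, no trend, the replicate block, the brightest probe set or the mean of probe sets per gene, no probe sets that can match several transcripts, and leaving out each array in turn. Mei4 was the single member called in all 16. All of them reuse arrays of the contrast that chose Mei4, so nothing is read from these calls. The log2 change of Mei4 was 3.28 with a pseudocount of 1 and 2.20 with 64, and stayed within 1 SD of the spread between replicates in the others. The median of the other members was below 0 in all 16, and 2 to 4 neighbours were called, all higher.

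Germline genes called, 5 as reported, were 2 as deposited, 3 with median centring, 3 with a pseudocount of 1, 0 by limma without a trend (16 at an unadjusted p under 0.05), 1 with the replicate block, and 0 to 2 without single arrays. Mitotic and repressor genes called, 7 as reported, were 2 as deposited, 2 with median centring, 15 without the dimmer probe sets, 0 by limma without a trend (18 unadjusted), 2 with the replicate block, and 2 to 4 without single arrays. Probe sets called, 2868 as reported, were 1842 as deposited, 4309 without the dimmer ones, 941 without a trend, 1139 with the replicate block, 1539 for the mean per gene, where fewer features are tested, and 1183 to 1867 without single arrays; the cause of the other shifts was not tested. Same-lettered arrays deviated together in no pair (r = -0.029, -0.0073 and -0.098), so the values gave no sign that the letters pair the samples. A correlation over all probe sets cannot exclude a pairing that touches only some genes.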
